A study of Harpegnathos saltator with 75 samples.

Results

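A set of 33 genes of the jumping ant Harpegnathos saltator was examined, out of 20659 gene models counted in the series. The genes were chosen by their measured ovary levels at day 10. Their mean was under 10 CPM in gamergates and at least 30 CPM in workers, where CPM is the read count divided by the TMM-adjusted library size and multiplied by 1e6. Further conditions were that the gene was not strongly enriched in 1 tissue at day 0, with R below 3, where R is the log2 ratio of the highest to the second highest tissue mean after adding 5 CPM, and that the day 10 caste difference D (log2 of gamergate over worker mean, each plus 5 CPM) was larger in size in the ovary than in the fat body or brain. The CPM limits were met by 57 genes. Of these, 22 had an R of 3 or more and 2 had their largest difference in another tissue, which left 33. The opposite pattern, under 10 CPM in workers and at least 30 CPM in gamergates with the other conditions unchanged, was met by 122 genes.

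Polyadenylated RNA was sequenced from ovary, fat body and the brain without its visual part in 75 libraries. The groups were prospective gamergates and prospective workers at day 10, the same castes at day 3, and ants at day 0, which the labels class as workers, with 5 libraries of each tissue per group; the castes are called gamergates and workers here. No genotype, strain or treatment is given for any group, and neither the age of the ants nor whether each library is 1 ant is given in the sources used here. P-values therefore measure the spread between these samples, which may be technical. The 25 ovary libraries held between 737818 and 4677916 reads assigned to genes (median 1336607), so that 1 read was worth between 0.140 and 0.933 CPM.

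A gamergate is a worker that mates and lays eggs once a colony has no egg layer. An ant ovary is a bundle of tubes in which the germline, made up of oocytes and the nurse cells that load them with RNA, is enclosed by somatic follicle and sheath cells. In egg-laying ants the tubes fill with growing oocytes, and in workers that do not lay oocyte growth is limited. In bulk RNA of such an organ, fewer cells of a type and less RNA per cell cannot be told apart. The deposited table gives gene identifiers without names, and 0 of the 20659 identifiers matched the RefSeq gene table for this species, so the role of each gene is not given here and the genes are described by where and when they were found.

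Some libraries stood apart from their group. The median CPM over the 33 genes was 3.59, 4.60, 4.49 and 5.26 in day 10 gamergate ovaries 1 to 4 and 16.6 in gamergate ovary 5, against 50.4, 40.0, 55.1, 21.9 and 18.6 in worker ovaries 1 to 5. Gamergate 5 thus lay under workers 4 and 5 and far above the other gamergates, and workers 1, 2 and 3 lay well above workers 4 and 5. In day 3 ovaries the median was 6.04, 3.98, 6.48, 14.3 and 8.00 CPM in gamergates 1 to 5, against 15.4, 13.9, 15.3, 4.87 and 10.2 CPM in workers 1 to 5. Day 3 gamergate 4 lay among the workers and day 3 worker 4 among the gamergates. Day 0 ovaries had 9.15, 8.36, 18.6, 14.1 and 12.3 CPM.

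All caste differences were also differences between sequencing lanes. Per the library names, gamergates were on lane 2 and workers on lane 1 at both days, and each day had its own flow cell. Caste and lane cannot be told apart within a flow cell. Day 0 libraries lay on both lanes, so a fit with flow cell and lane as a term could be made, and its values are given where they end a call.

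**Figure D1:**
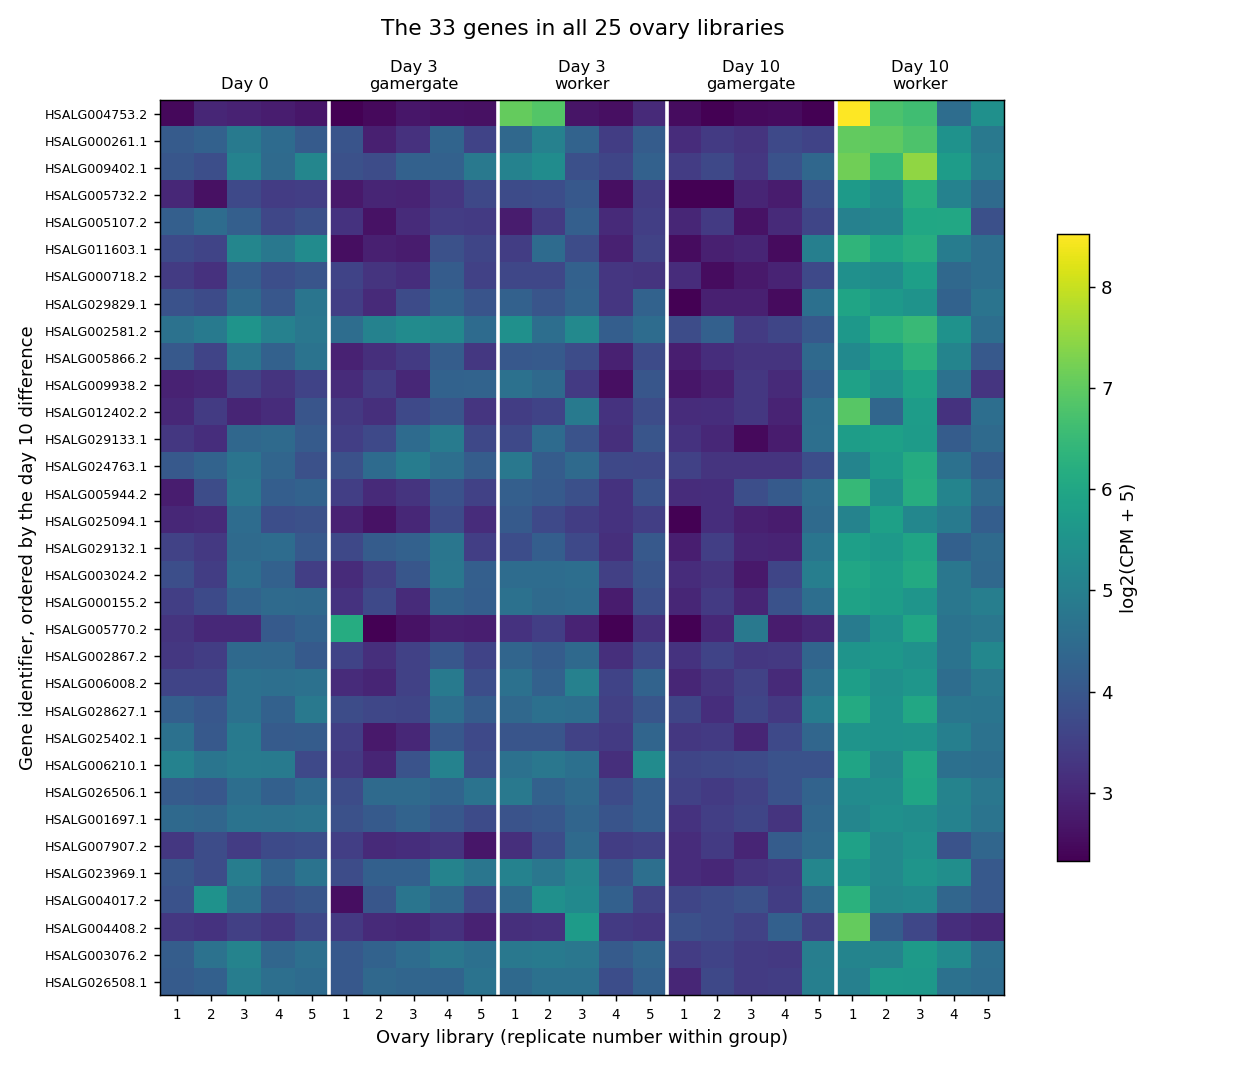
Levels of the 33 genes (down the page, by increasing D) in the 25 ovary libraries (across, in groups of 5), as log2(CPM + 5) by colour. For most genes day 10 worker ovaries 1, 2 and 3 are brighter than the other libraries, day 10 gamergate ovaries 1 to 4 are dark, and gamergate 5 and workers 4 and 5 lie between them. The top of the colour scale is set by HSALG004753.2 in day 10 worker 1 (363 CPM), so few cells are near it.

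The genes were not silent outside day 10 worker ovaries. Over the 33 genes, the ovary group mean had a median of 13.5 CPM at day 0 (1.93 to 27.2 CPM). At day 3 it was 8.78 CPM in gamergates (0.863 to 26.3 CPM) and 11.9 CPM in workers (3.45 to 49.1 CPM). At day 10 it was 7.34 CPM in gamergates (0.388 to 9.99 CPM) and 35.9 CPM in workers (30.0 to 123 CPM), values that the choice of genes bounds. At day 0, 24 of the 33 genes had an ovary mean of 10 CPM or more and 0 reached 30 CPM. A description as genes on in worker ovaries and off elsewhere is thus not met: the genes were present at low levels in day 0 and day 3 ovaries, and many were abundant in other tissues.

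The day 10 contrast chose the genes, and its values are given as a description. The sum over the 33 genes was 126, 162, 167, 182 and 527 CPM in gamergate ovaries 1 to 5, against 2175, 1518, 1912, 798 and 605 CPM in worker ovaries 1 to 5. The highest gamergate lay below the lowest worker, and workers 4 and 5 were closer to gamergate 5 than to workers 1, 2 and 3. D ran from -4.57 to -1.29 with a median of -1.80. In the edgeR quasi-likelihood fit 31 of 33 genes were lower in gamergates at an adjusted p below 0.05, where 21.5% of the 9150 ovary genes tested were lower; since the rule used this contrast, nothing is read from that count. Called in either direction were 44.1% of all genes. Of the 2 others, HSALG004408.2 had a log2 fold change of -1.88 with an SE of 0.83 (edgeR adjusted p = 0.0689). The second, HSALG005770.2, had one of -2.35 with an SE of 1.05 (edgeR adjusted p = 0.0729). Gamergate 3, at 23.6 CPM for HSALG005770.2, lay among the workers (20.6 to 58.8 CPM), and 1 day 3 gamergate ovary was at 66.5 CPM while the other 4 were at 0 to 2.27 CPM. With flow cell and lane as a term 0 of the 33 were called, with a median log2 fold change of -2.09 against -2.33 without it. That fit called 1 of all 9150 genes, where 4036 were called without the term. The loss of calls is thus not particular to the 33 genes. The lane terms rest on the day 0 ovaries alone.

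Single libraries show how uneven the worker group was. Of the 33 genes, 0 reached 30 CPM in all 5 worker ovaries, 6 in 4 of them, 20 in 3, 6 in 2 and 1 in a single library. The highest value was in worker 3 for 14 genes, in worker 1 for 13, in worker 2 for 5 and in worker 4 for 1. Workers 4 and 5 were the lowest pair for 29 genes. Among gamergates, library 5 was the highest for 27 genes, was at 10 CPM or more for 24, and exceeded the lowest worker for 18. All 5 gamergates lay below all 5 workers for 14 genes (8.13% of all ovary genes tested had this pattern), and for 28 genes when gamergate 5 was left out (18.3% of all genes). Both counts use the day 10 values that chose the genes, so nothing is read from them. Gamergate 5 was left out after its values were seen.

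The largest difference belonged to HSALG004753.2. In day 10 gamergate ovaries it was at 0.719, 0, 0.562, 0.658 and 0 CPM, 3 reads in all. In day 10 worker ovaries 1 to 5 it was at 363, 104, 93.3, 18.1 and 38.0 CPM, 2121 reads in all. Its day 0 ovaries were at 0.508 to 2.97 CPM, the lowest day 0 mean of the set. Every day 10 worker lay above every gamergate, and worker 1 alone held most of the reads. The pooled level in workers was 532 times that in gamergates, with an exact binomial 95% interval of 182 to 2580 that covers counting error only, and 173 times (58.6 to 840) without worker 1. Pooling weights each library by its reads, and worker 1 had 3558381 assigned reads, against 737818 to 1327164 in the other workers. Group means, which weight libraries equally, were 0.388 CPM in gamergates and 123 CPM in workers. The gene was picked by this difference, so the ratios and intervals are a description.

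HSALG004753.2 was also high in some day 3 workers. Its day 3 ovaries were at 0, 0.569, 1.53, 1.13 and 1.09 CPM in gamergates, against 129, 111, 1.33, 0.974 and 3.38 CPM in workers 1 to 5. Its day 3 fat bodies were at 0, 35.4, 0, 0 and 122 CPM in gamergates, against 934, 4150, 6.62, 0 and 2.73 CPM in workers 1 to 5. Its day 3 brains were at 0 CPM in all 5 gamergates, against 12.7, 27.4, 0, 0 and 0 CPM in workers. Worker libraries numbered 1 and 2 were thus high in each of the 3 tissues at day 3, and the other 3 were near 0; the labels do not say whether a number stands for 1 ant.

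In those day 3 workers the fat body was well above the ovary, whereas at day 10 the order was the reverse. Day 10 fat bodies were at 0, 3.99, 1.66, 2.03 and 4.17 CPM in gamergates, against 63.6, 2.12, 32.4, 1.36 and 2.18 CPM in workers 1 to 5. Each day 10 worker ovary lay above the fat body of the same number. The day 3 caste difference in the ovary was not called for HSALG004753.2 (log2 fold change -5.58, SE 1.31, edgeR adjusted p = 0.983), although DESeq2 called it (adjusted p = 0.00285). The pooled worker to gamergate ratio at day 3 was 49.1 (27.2 to 98.9), and 2.08 (0.859 to 5.12) without workers 1 and 2, so it rests on those 2 libraries.

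**Figure D2:**
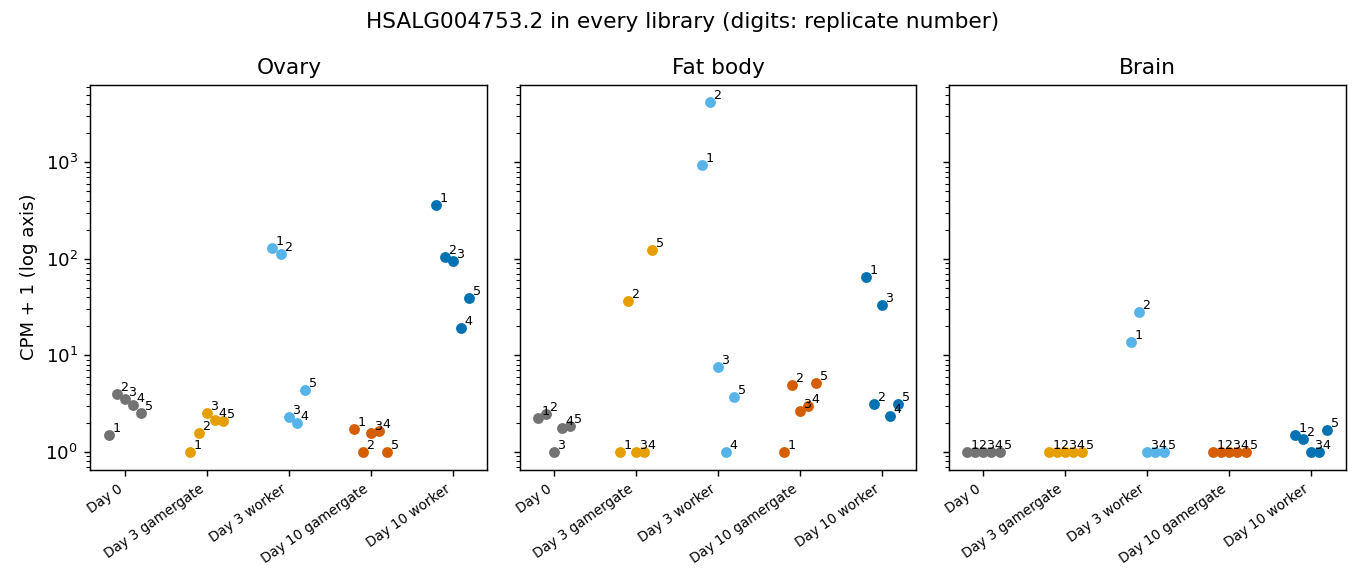
Level of HSALG004753.2 (CPM + 1, log axis) in each library of ovary, fat body and brain, by group, with the replicate number beside each point. In the ovary the 5 day 10 workers (18.1 to 363 CPM) and day 3 workers 1 and 2 (129 and 111 CPM) stand above all other libraries; in the fat body day 3 workers 1 and 2 are highest.

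HSALG000261.1 and HSALG009402.1 came next by D and were also the genes whose pattern over the 25 ovary libraries was most like that of HSALG004753.2 (Pearson r of log2(CPM + 5) of 0.82 and 0.83; a description over libraries that share depth and composition). HSALG000261.1 was at 3.59, 5.37, 4.49, 7.89 and 6.85 CPM in day 10 gamergate ovaries, against 125, 121, 106, 40.0 and 23.3 CPM in worker ovaries 1 to 5. No gamergate reached the lowest worker, and gamergate 5 was not set apart. Gamergates averaged 5.64 ± 1.74 CPM, workers averaged 83.1 ± 47.9 CPM, and day 0 ovaries averaged 16.1 ± 5.12 CPM (SD, n = 5 each). It was also lower in gamergate fat bodies, with means of 11.0 ± 7.43 CPM for gamergates and 39.7 ± 23.2 CPM for workers (log2 fold change -1.87, SE 0.52, edgeR adjusted p = 0.0422). That call for HSALG000261.1 in fat body was lost with no filter on low counts (edgeR adjusted p = 0.0720), with flow cell and lane as a term (edgeR adjusted p = 0.587), when gamergates and workers alone were fitted (edgeR adjusted p = 0.0557), and when any single gamergate or any of workers 1, 2 and 3 was left out (edgeR adjusted p between 0.0501 and 0.150).

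HSALG009402.1 was at 5.75, 7.67, 5.06, 9.87 and 16.1 CPM in day 10 gamergate ovaries, against 139, 85.2, 175, 48.7 and 26.4 CPM in worker ovaries. The castes did not overlap, and worker 5 came nearest to gamergate 5. In brain this gene was more even, with 38.6 ± 13.1 CPM in gamergates at day 10 and 31.5 ± 3.57 CPM in workers at day 10 (SD, n = 5 each).

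HSALG005732.2 was at 0, 0, 2.81, 1.97 and 9.29 CPM in day 10 gamergate ovaries, against 46.6, 34.8, 69.1, 28.7 and 17.1 CPM in worker ovaries. At day 0 its ovaries were at 1.12 to 7.88 CPM, so the worker values at day 10 were above every day 0 value. In brain and fat body it was present in every library, at 26.5 CPM or more in day 10 worker brains and 20.2 CPM or more in day 10 worker fat bodies.

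At day 3 most of the genes were higher in another tissue than in the ovary. Over the day 3 libraries, which the rule did not use, 17 genes had their highest tissue mean in the fat body, 12 in the brain and 4 in the ovary. In insects the fat body holds nutrient stores and makes most proteins of the blood. In day 10 workers, whose ovary level helped choose the genes, 20 had their highest mean in the ovary, 8 in the fat body and 5 in the brain. The order of tissues depends on the scaling, since TMM factors had a median of 0.557 in fat body, 1.28 in brain and 1.45 in ovary libraries. With no factors, an alternative chosen after seeing the data, the day 3 counts were 11 in the fat body, 13 in the brain and 9 in the ovary, and 22 genes were highest in the ovary in day 10 workers.

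By the day 3 classes with TMM, the genes had near-equal ovary levels at day 10, which the CPM limits favour. The median of group means was 7.05 CPM in gamergates and 35.9 CPM in workers for the fat body class. It was 8.66 CPM in gamergates and 35.8 CPM in workers for the brain class, and 6.49 CPM in gamergates and 36.3 CPM in workers for the ovary class.

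At day 0 the classes had different counts of low genes. Of the 17 genes of the fat body class 8 were under 10 CPM in day 0 ovaries, against 0 of the 12 of the brain class and 1 of the 4 of the ovary class. The classes were not tested against each other.

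The fat body class was led by HSALG011603.1, at 1827 ± 366 CPM in day 10 worker fat body and 49.4 ± 26.1 CPM in day 10 worker ovary (SD, n = 5). Its ovaries were at 0.719, 2.30, 2.81, 0.658 and 26.9 CPM in day 10 gamergates 1 to 5, against 78.3, 57.1, 67.2, 25.6 and 18.6 CPM in workers 1 to 5. Gamergate 5 lay above workers 4 and 5, so the castes overlapped. In fat body HSALG011603.1 averaged 1981 ± 769 CPM for gamergates at day 10 and 1827 ± 366 CPM for workers, with a log2 fold change of 0.14 (SE 0.30, edgeR adjusted p = 0.888).

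HSALG029132.1 and HSALG029133.1, named after their values were seen, had the most similar pattern of any pair among the 33 genes (r of log2(CPM + 5) of 0.99 over the 75 libraries). That r includes the differences between ovary, fat body and brain, so it is no measure of likeness within the ovary. The ovary means of the pair were 7.05 and 5.80 CPM in day 10 gamergates, against 36.8 and 35.9 CPM in workers. Their fat body means were 225 and 201 CPM in gamergates, against 233 and 216 CPM in workers. Whether they are near-identical copies that share reads could not be checked without annotation.

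The brain class was led by HSALG003024.2, at 354 ± 61.2 CPM in day 10 worker brain. Its ovaries were at 3.59, 4.60, 1.69, 7.24 and 26.4 CPM in day 10 gamergates 1 to 5, against 58.5, 50.4, 63.5, 22.5 and 16.3 CPM in workers 1 to 5. Here too gamergate 5 lay within the workers. HSALG002581.2 of the same class had the highest day 0 ovary mean of the set, 27.2 ± 8.21 CPM, and was near it at day 3, with 26.3 ± 8.14 CPM for gamergates and 24.0 ± 10.7 CPM for workers. Its day 10 ovaries were at 8.63, 13.8, 5.62, 7.24 and 11.2 CPM in gamergates, against 44.1, 72.7, 87.7, 40.0 and 18.6 CPM in workers. For this gene all 5 day 10 gamergates lay below every day 0 ovary (20.3 to 41.0 CPM).

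In the ovary class the member most even across workers was HSALG025402.1, at 5.03, 5.37, 2.81, 7.89 and 15.6 CPM in day 10 gamergates, against 41.2, 40.0, 40.1, 26.9 and 20.2 CPM in workers. It was low in the other tissues, at 6.19 CPM in worker fat body and 2.63 CPM in worker brain. The least even member of the set was HSALG004408.2, at 9.35, 8.44, 6.74, 13.8 and 6.36 CPM in day 10 gamergate ovaries, against 128, 12.5, 7.47, 3.75 and 3.10 CPM in worker ovaries. Worker 1 held 82.7% of its summed worker level, and the other 4 workers lay within or below the range of the gamergates, so its place in the set rests on that library. A similar single value stood in day 3 worker ovary 3, at 47.8 CPM, against 3.96 to 5.36 CPM in the other day 3 workers.

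**Figure D3:**
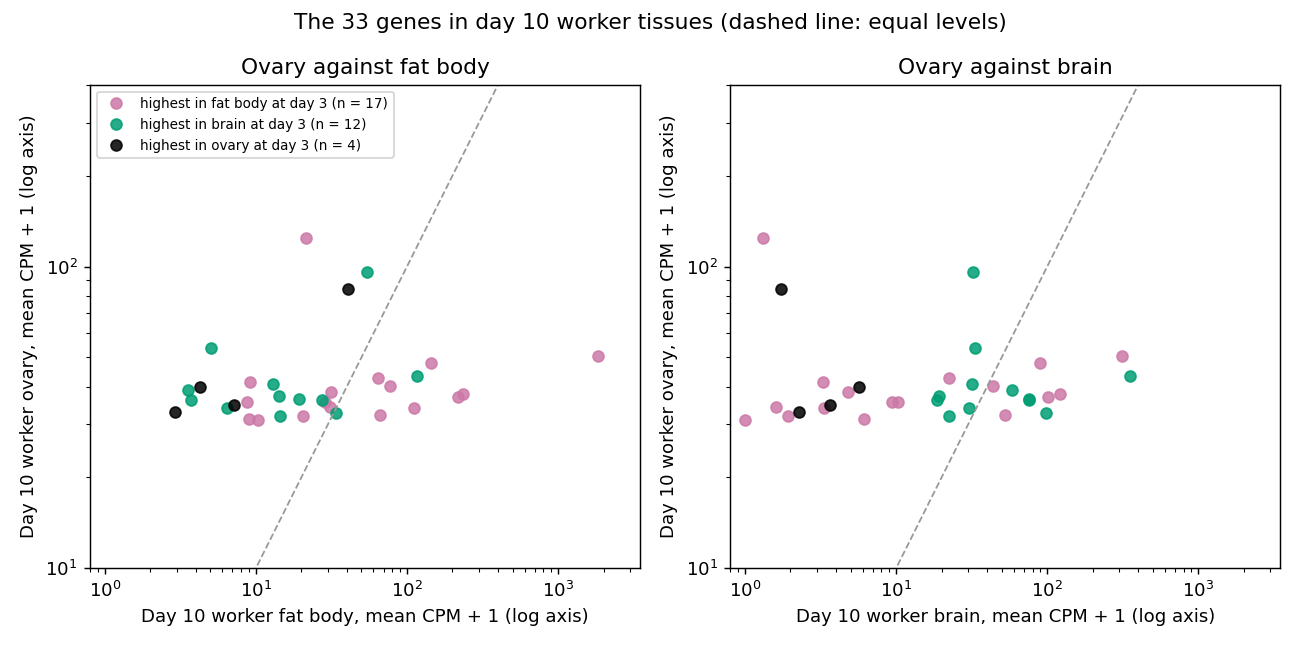
Mean level of each of the 33 genes in day 10 worker ovary (vertical) against day 10 worker fat body (left) and brain (right), as CPM + 1 on log axes, coloured by the tissue in which the gene was highest at day 3. Points above the dashed line, 23 genes against the fat body and 22 against the brain, were higher in the ovary; with no TMM factors these counts were 27 and 23.

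Genes enriched in the other tissues also had higher mean sums in day 10 worker ovaries, with ranges that overlapped those of gamergates and no test made. Tissue lists were made from day 0 libraries as the genes with an R of 3 or more, which holds no member of the set: 375 genes highest in brain, 339 in fat body and 77 in ovary. In day 3 and day 10 libraries, which did not make the lists, the ovary list summed to 13470 CPM or more in every ovary and to 2592 CPM or less in every fat body and brain. The summed level of the brain list in day 10 ovaries was 1878 to 2405 CPM in gamergates and 2005 to 4633 CPM in workers, with 9 of its genes at 0 reads in all 10 libraries. For the fat body list it was 13329 to 20357 CPM in gamergates and 13088 to 30763 CPM in workers, with 2 genes at 0. Workers 4 and 5, at 13088 and 14455 CPM of the fat body list, lay below gamergates 1 to 4 (16442 to 20357 CPM). By gene, the mean was higher in worker ovaries for 272 of the 375 brain list genes and 205 of the 339 fat body list genes. The list means in workers were 1.64 times those in gamergates for the brain list and 1.24 times for the fat body list. The same ratio for the 33 genes, 6.02, was set in large part by the CPM limits that chose them, so it is not compared with the lists.

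The high values of both lists were in worker ovaries 1, 2 and 3, the same libraries in which the 33 genes were highest. The ovary list ran the other way, at 36701, 34055, 51743, 32456 and 19775 CPM in day 10 gamergates 1 to 5, against 16983, 14789, 13470, 23809 and 26707 CPM in workers 1 to 5. Gamergate 5 thus had a lower level of ovary-enriched genes than workers 4 and 5. How much these differences in make-up contributed to the levels of the 33 genes was not tested. Day 10 gamergate libraries numbered 5 also stood apart in the other tissues. In fat body, number 5 had 911077 CPM of the fat body list, against 1664727 to 1963365 CPM in the other gamergates. TMM factors below 1 let such a sum pass 1e6 CPM. In brain, number 5 had 69664 CPM of the brain list, against 116344 to 137825 CPM. The labels do not say whether a number stands for 1 ant.

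Ovary levels were also set against levels in the other tissues. The rule required 30 CPM or more of each gene in day 10 worker ovaries, which favours a high share for genes that are low elsewhere, so these shares are a description and bear on no source of the RNA. In day 10 workers the fat body list summed in the ovary to 3.12% of its sum in the fat body, and 1 of the 33 genes, HSALG011603.1, was below that share, at 2.70%. The other 32 lay above it, up to 1669%, with a median over all 33 of 194%. The brain list summed in the ovary to 2.97% of its sum in the brain, and 0 genes were below that share; the lowest was HSALG003024.2 at 11.9%.

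**Figure D4:**
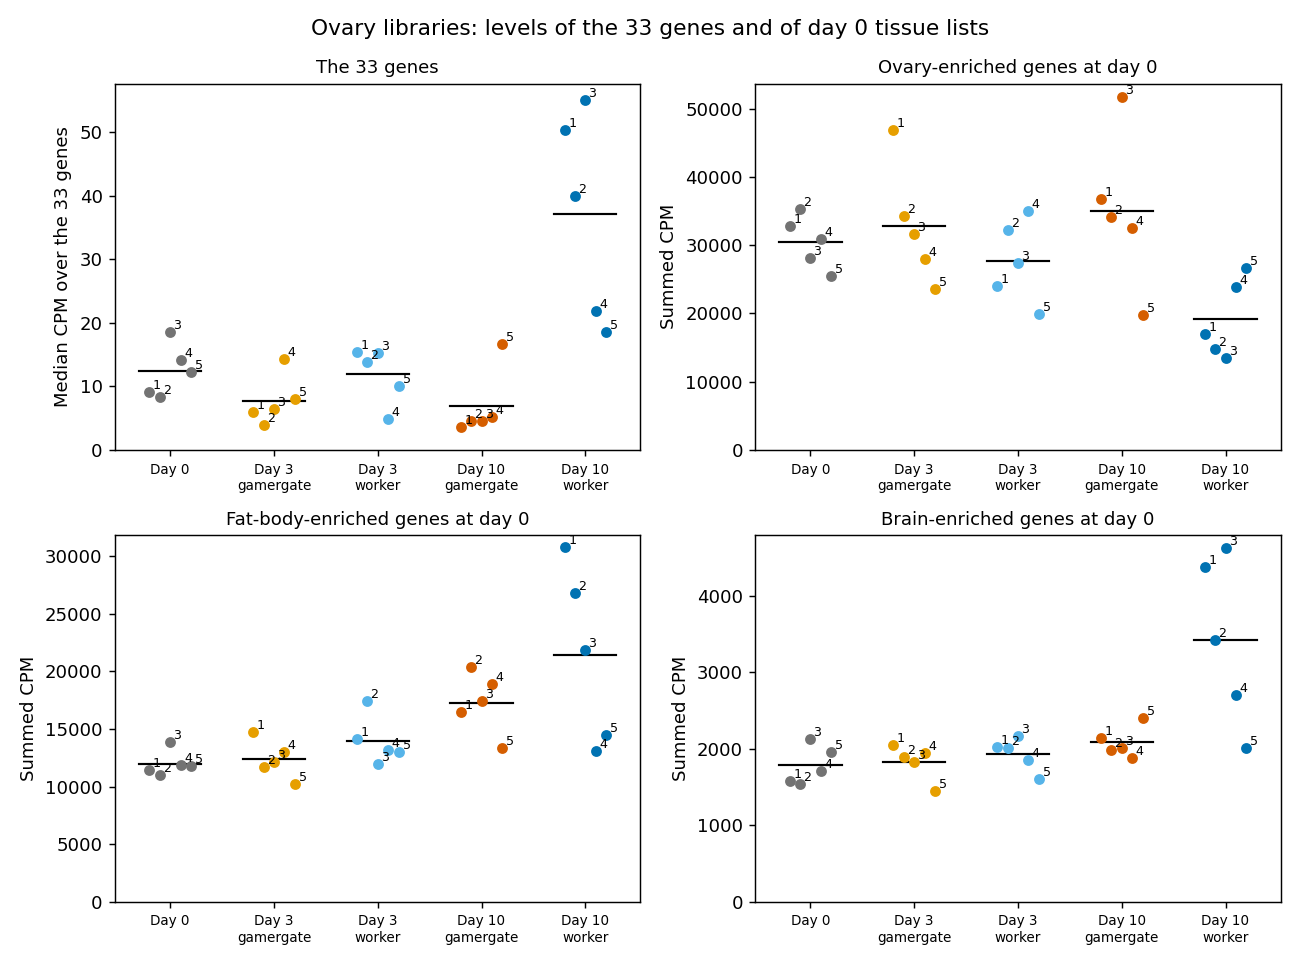
Each point is 1 ovary library, with its replicate number, and lines are group means; the panels give the median CPM over the 33 genes and the summed CPM of the ovary, fat body and brain lists. Day 10 worker ovaries 1, 2 and 3 are highest for the 33 genes and lowest for the ovary list, and gamergate ovary 5 lies nearer to workers 4 and 5 than to the other gamergates for the 33 genes and the ovary list.

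The caste comparison at day 3 was the test in the ovary that the choice of genes did not touch. The fitted log2 fold change was negative, which is lower in gamergates, for 27 of 33 genes, with a median log2 fold change of -0.46, where the median over all 9150 genes was -0.02. These genes share the same libraries, so their directions are not independent, and the count of 27 was not tested. By edgeR 0 of the 33 were called, and 0 of all 9150 genes (0%). At an unadjusted p below 0.05 there were 2 of the 33, against 3.96% of all genes, and DESeq2 called 1, with 5 called among all genes. For 0 of the 33 all 5 day 3 gamergates lay below all 5 workers (0.153% of all genes had this pattern). The median was -0.93 without day 3 worker 4 and gamergate 4, an alternative chosen after seeing the data, again with 0 called, and with flow cell and lane as a term the median was 0.11.

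The change of the caste difference from day 3 to day 10 was also tested by edgeR, with the day 10 libraries that chose the genes. It was called towards lower in gamergates for 13 of the 33 genes (8.59% of all genes) and towards higher for 0 (11.4%; 20% in either direction), and nothing is read from it.

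Single libraries also departed from their caste at day 3. Worker 4 was the lowest day 3 worker for 26 of the 33 genes, and gamergate 4 was the highest day 3 gamergate for 20. By group mean, 1 gene reached 30 CPM in day 3 worker ovaries, HSALG004753.2 at 49.1 ± 65.0 CPM (SD, n = 5), which rests on workers 1 and 2. For all 33 genes the day 10 worker mean was above the day 3 worker mean, an order that the 30 CPM limit favours.

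**Figure D5:**
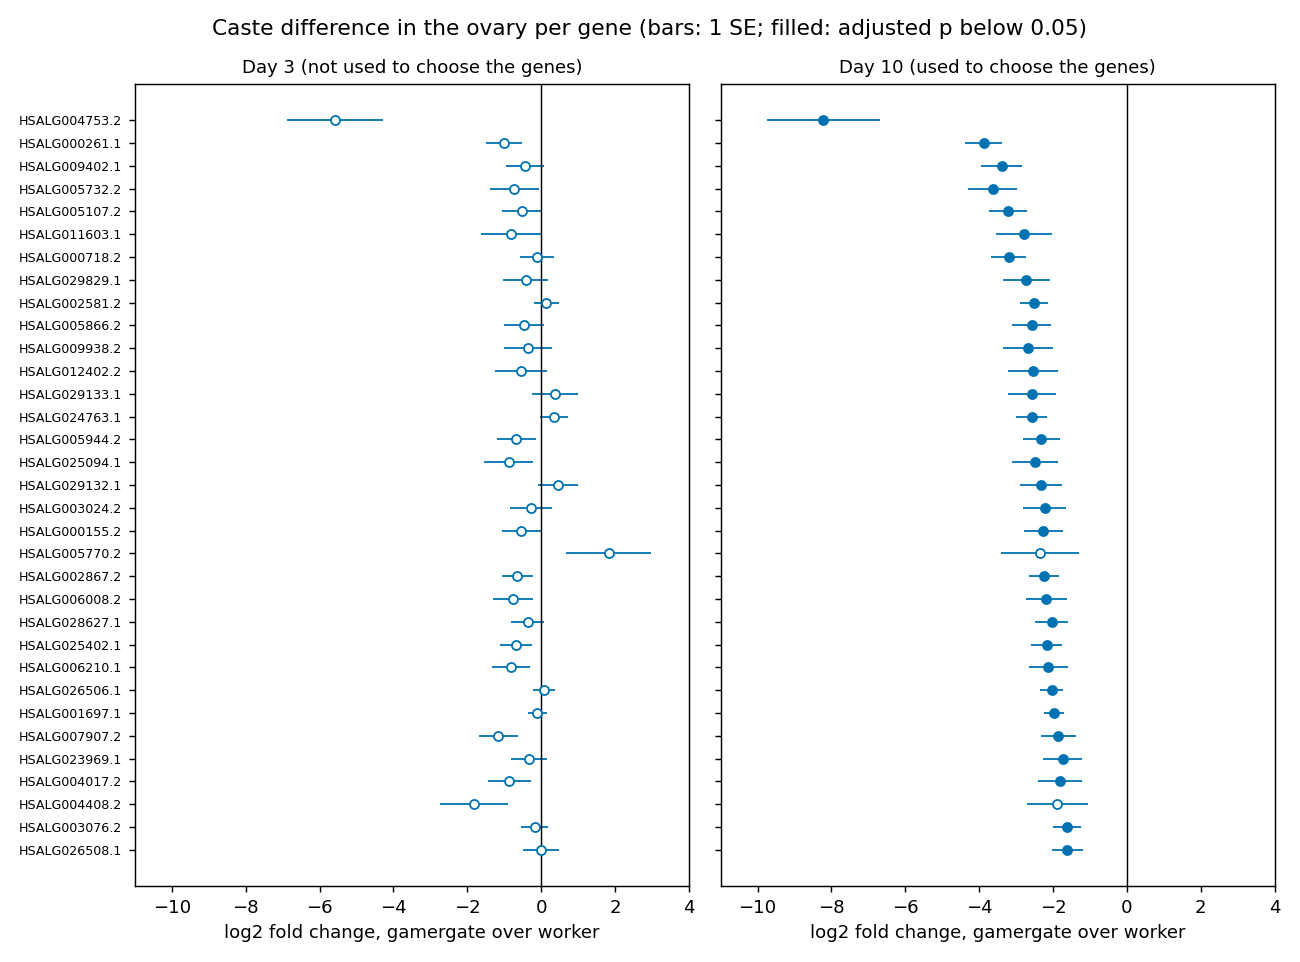
Fitted log2 fold change of gamergate over worker ovaries for each of the 33 genes at day 3 (left) and day 10 (right), with bars of 1 SE and filled points at an adjusted p below 0.05. At day 3, 27 genes lie left of 0 and none is filled; at day 10, which chose the genes, 31 are filled. The values of HSALG004753.2 rest on few gamergate reads.

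Ovaries at day 3 were also compared with those at day 0. In the day 3 against day 0 comparison of ovaries, both castes averaged, 4 of 33 genes were lower at day 3 and 0 higher, where 10.8% of all genes tested were lower and 10.4% higher. In either direction 21.2% of all genes were called. HSALG011603.1 fell by 1.73 on the log2 scale (SE 0.60, edgeR adjusted p = 0.0441) and HSALG005107.2 fell by 1.29 (SE 0.40, edgeR adjusted p = 0.0249). The remaining 2 were HSALG025402.1, with a log2 fold change of -1.02 (edgeR adjusted p = 0.0344), and HSALG001697.1, with one of -0.70 (edgeR adjusted p = 0.0240). HSALG005107.2 averaged 4.00 ± 1.84 CPM for day 3 gamergates and 6.05 ± 4.36 CPM for day 3 workers, against 12.2 ± 4.08 CPM at day 0 (SD, n = 5 each). The median over the 33 genes was -0.21. All 4 calls ended when the day 0 ovaries were limited to those on the flow cell of the day 3 libraries, where the median was 0.08, with flow cell and lane as a term, where it was 0.22, and without day 0 library 3. Calls over all genes fell as well in these settings, from 1937 to 706, 488 and 1299. The count among the 33 was 2 without day 3 gamergate 2 or 3, day 3 worker 3, or day 0 library 4 or 5.

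Against day 0, all of the genes had higher means in day 10 worker ovaries, and most had lower means in gamergate ovaries. These contrasts share the libraries that chose the genes, and they share the day 0 libraries with each other. For day 10 workers all 33 genes had a mean above day 0, and 26 were called higher (21.2% of all genes were, and 43.5% in either direction), with a median log2 fold change of 1.65. For day 10 gamergates 29 had a mean below day 0, and 5 were called lower (11.8% of all genes were, and 25.3% in either direction), with a median of -0.83. On the scale of log2(mean CPM + 5), the day 0 mean lay nearer to the gamergate than to the worker mean for 28 of 33 genes. The CPM limits bound both day 10 means, and the added 5 CPM narrows distances between low values. Nothing is therefore read from that count.

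The 5 genes lower in day 10 gamergates than at day 0 were HSALG001697.1, HSALG002581.2, HSALG024763.1, HSALG005107.2 and HSALG000261.1. HSALG001697.1 had the lowest adjusted p, at 4.31, 6.14, 7.30, 4.61 and 16.1 CPM in gamergates, against 16.8, 15.6, 20.5, 20.3 and 21.0 CPM at day 0 (log2 fold change -1.23, SE 0.27, edgeR adjusted p = 0.00245). Gamergate 5 was level with the lowest day 0 ovaries and the other 4 lay below all of them. Without gamergate 5 the count of genes lower than at day 0 was 20 of 33 and the median was -1.60, while the calls over all genes in either direction went up as well, to 3364 against 2317 with all libraries; without gamergate 1, 2, 3 or 4 or day 0 library 3 it was 2 or 3. With flow cell and lane as a term 0 of the 33 genes were called in either contrast, with medians of 1.07 for workers and -0.90 for gamergates. Over all genes that fit called 0 for workers, instead of 3976 without the term, and 15 for gamergates, instead of 2317.

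Between the castes at day 10, 2 genes of the set were called in the fat body and 0 in the brain, where few of all genes were called as well. The rule limited the size of these differences, so they are a description. Of the 25 genes that passed the filter on low counts in the fat body, 1 was lower in gamergates (2.23% of all genes tested were) and 1 higher (1.99%, and 4.22% in either direction), with a median log2 fold change of -0.07. The higher gene was HSALG005866.2, at 58.0, 55.9, 38.2, 54.8 and 62.5 CPM in gamergate fat bodies, against 6.36, 9.89, 11.2, 14.9 and 17.4 CPM in worker fat bodies (log2 fold change 2.26, SE 0.38, edgeR adjusted p = 0.00137). With flow cell and lane as a term the log2 fold change of HSALG005866.2 was 1.17 and was not called. In the ovary it ran the other way, at 2.16, 3.84, 4.49, 4.61 and 16.6 CPM in gamergates, against 33.5, 48.8, 74.7, 30.0 and 11.6 CPM in workers. The castes did not overlap in the fat body for this gene, whereas in the ovary gamergate 5 lay above worker 5.

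In the brain 22 genes passed the filter and 0 were called at day 10 by edgeR (0.182% of all genes tested were higher and 0.0607% lower, 0.243% in either direction), with a median log2 fold change of 0.07; 3 had an unadjusted p below 0.05 (5.17% of all genes did), and DESeq2 called 1 (46 of all genes). At day 3 edgeR called 0 in the brain, where 0% of all genes were called, and 0 in the fat body, where 0.0504% were. All 5 gamergates lay below all 5 workers for 1 of the 25 genes in the fat body at day 10 (2.13% of all genes) and for 0 of the 22 in the brain (0.728%). The opposite, all 5 gamergates above all 5 workers, held for 1 gene in the fat body (2.37% of all genes), HSALG005866.2, and 2 in the brain (1.08%). The brain pair, named after their values were seen, ran against their ovary direction. HSALG005107.2 was at 96.2, 101, 89.1, 80.1 and 112 CPM in gamergate brains, against 44.9 to 68.2 CPM (median 57.4 CPM) in the 5 worker brains (log2 fold change 0.78, SE 0.19, edgeR adjusted p = 0.0886). HSALG011603.1 was at 415, 451, 361, 434 and 841 CPM in gamergate brains, against 329, 267, 249, 357 and 354 CPM in worker brains (log2 fold change 0.73, SE 0.22, edgeR adjusted p = 0.356). Neither passed the edgeR test. At day 3 all 5 gamergates lay below all 5 workers for 0 genes in the fat body (0.441% of all genes) and 0 in the brain (0.263%). At an unadjusted p below 0.05 the day 3 counts were 0 in the brain (1.27% of all genes) and 1 in the fat body (6.40% of all genes). DESeq2 called 0 of the set in both, and 0 of all genes in the brain and 12 in the fat body. The day 3 medians were 0.19 in the brain, with 21 of 22 genes higher in gamergates, and -0.03 in the fat body, with 10 of 25 higher. Over all genes tested the medians were -0.001 in the brain and -0.03 in the fat body. The genes share the same libraries, so their directions are not independent, and these counts were not tested.

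Membership depended on the limits. HSALG003076.2 was just inside the 10 CPM limit, with means of 9.99 CPM for gamergates and 31.7 CPM for workers, and HSALG002297.2 just outside it, with 10.0 CPM for gamergates and 32.8 CPM for workers. HSALG025094.1 was just inside the 30 CPM limit, with means of 5.03 CPM for gamergates and 30.0 CPM for workers, and HSALG002381.2 just outside, with 6.83 CPM for gamergates and 28.7 CPM for workers. Without gamergate ovary 5 the rule was met by 74 genes, all 33 among them. With TMM factors computed within each tissue it was met by 40 genes, 15 of them in the set.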

How the data were processed

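The authors deposited 1 table of raw read counts per gene model, not normalized, for 75 libraries. The submitters' processing notes list Trimmomatic (read trimming), the aligner STAR 2.5.3a and the read counter HTSeq. Build, annotation and strand setting were not given in the sources used here, so genes that overlap, lie antisense or have near-identical copies could not be recognised. The 5 rows that name no gene were left out, among them reads outside genes (20.7% to 67.7% of a library).

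The members and lists were chosen with earlier results of these data known. CPM values use TMM factors over all 75 libraries. Each tissue was fitted alone with edgeR 4.0.16 in R 4.3.3 (filterByExpr with a minimum count of 10 and a minimum total of 15, TMM, robust quasi-likelihood test, 1 coefficient per group over 25 libraries). Benjamini-Hochberg adjustment ran over all genes tested (9150 in ovary, 9886 in brain, 7941 in fat body), at a threshold of 0.05. All 33 genes passed the ovary filter. Standard errors were derived from the fold change and its F statistic (absolute log2 value over root F). The fit was tested on simulated ovary counts, where many of the smaller changes put in were not recovered. A gene that was not called may therefore still differ. Alternatives were DESeq2 1.42.0, other scaling and filters, blocks, lane terms and leaving out libraries. No 2 libraries held identical counts. Genes are named by fixed places in the set: lowest D, nearest the limits, highest or lowest per tissue, most and least even across workers, most alike, and the largest changes called in tests on data the rule did not use. Genes named for a count of 5 or fewer, and those in the fat body at day 10, were chosen after their values were seen. Lists by gene name could not be used, since identifiers carry no names.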

Additional observations from a re-analysis of the deposited data

Results flagged for a closer look

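In groups of 5, 85 sets of values were examined for a library far from the others, and 8 were marked. The rule used marks about 1 in 20 sets of independent normal values. These sets share libraries, and HSALG004408.2 was named for its uneven worker values, so the 8 are not set against that rate. Day 10 gamergate ovary 5 stood out 4 times: in the median over the 33 genes (16.6 CPM, next 5.26), in HSALG011603.1 (26.9 CPM, next 2.81), in HSALG003024.2 (26.4 CPM, next 7.24) and in HSALG001697.1 (16.1 CPM, next 7.30). Day 10 worker ovary 1 stood out in HSALG004753.2 (363 CPM, next 104) and in HSALG004408.2 (128 CPM, next 12.5). Day 3 worker ovary 3 stood out in HSALG004408.2 (47.8 CPM, next 5.36), and day 3 worker fat body 2 in HSALG004753.2 (4150 CPM, next 934).

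The caste difference in the ovary changed between day 3 and day 10 for 13 of the 33 genes by a direct edgeR test of that change, all towards lower in gamergates, where 8.59% of all ovary genes changed that way. The day 10 part of this contrast chose the genes, so the count is a description.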

How the results depend on the processing

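The number of the 33 genes called was within 1.5 times of the reported one in 120 alternatives and outside that range in 32. A count of 0 beside a reported 0 was taken as within the range, and the day 10 ovary contrast by caste chose the genes. The 120 is thus no measure of stability. With flow cell and lane as a term the count was 0 for day 10 ovaries by caste, day 3 against day 0, day 10 workers and gamergates against day 0, and fat body at day 10, and 1 in the brain at day 10. Over all genes that fit called 1 for day 10 ovaries by caste, instead of 4036 without the term. At day 10 it called 25 instead of 335 in the fat body and 12 instead of 24 in the brain. DESeq2 called 1 of the 33 at day 3 in the ovary, 8 for day 10 gamergates against day 0 and 1 in the brain at day 10. Day 3 against day 0 gave 0 with day 0 ovaries of 1 flow cell. Day 10 gamergates against day 0 gave 20 without gamergate 5 and workers 4 and 5, chosen after seeing the data. In the fat body at day 10 it was 1 with no filter, with the replicate block and when gamergates and workers alone were fitted; with the block HSALG000261.1 had an edgeR adjusted p of 0.0673.

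With 1 library left out, the counts were 30 to 32 for day 10 ovaries by caste, 0 to 5 for day 3 against day 0, 20 to 29 for workers and 2 to 20 for gamergates at day 10 against day 0, 1 to 2 in the fat body at day 10, and 0 for the caste contrasts of brain at both days and of ovary and fat body at day 3. The rule was met by 23 to 74 genes with 1 day 10 ovary left out, by 23 without worker 3 and by 66 with group medians. Replicate numbers did not pair the ovaries of the castes: same-numbered libraries correlated at -0.26 to 0.02 at day 10 and -0.65 to 0.43 at day 3, and own numbers were the best match for 0 of 5 and 2 of 5. The replicate block gave 31 for day 10 ovaries by caste, 0 at day 3, and 3, 25 and 5 against day 0 for day 3, day 10 workers and day 10 gamergates. Since 1 read was worth up to 0.933 CPM, ovary values of a few CPM rest on few reads.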
